A study of Mus musculus with 3 samples.

Results

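The 48 genes described here encode chromatin remodellers, bromodomain proteins and corepressors. They were grouped as 8 CHD remodellers, 6 SWI/SNF and ISWI ATPases and core subunits, and 6 ARID proteins. Smarcad1, a remodeller of neither the SWI/SNF nor the ISWI class, was placed with the 6 ATPases and core subunits. Another 5 genes lie around the INO80, SRCAP, EP400, TRRAP and ATRX machines. The rest were 6 bromodomain (BRD) proteins, 5 BAZ and BPTF proteins, 8 corepressors and Polycomb-linked scaffolds, and 4 Mediator subunits. The 48 genes were picked by name and not by a threshold on any measured value. Earlier results of these data were known, so that the comparisons with other genes are descriptions. A predicted m6A site was counted for a member when it lay on the same strand inside the span of the gene, and it was placed on the transcript with the longest coding sequence (CDS). By this rule 213 of the 19301 sites in the list belonged to members, and 37 of the 48 members held at least 1 site.

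The sites come from RAW264.7, an established mouse macrophage cell line, which the series text calls human although the organism label is mouse. Poly(A)+ RNA of untreated cells was profiled in 3 biological replicates by miCLIP2, which crosslinks an antibody against m6A to RNA with UV light and reads the crosslinked nucleotide from where reverse transcription stops. The deposited list holds 1 row per site, pooled by the authors over the replicates of this single condition, with a prediction score of the m6Aboost model between 0.5 and 1. Neither the depth behind a site nor its spread between replicates can be read from such a list, and a gene that is unmethylated and one that is hardly expressed cannot be told apart.

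N6-methyladenosine (m6A) is placed on mRNA during transcription by the METTL3-METTL14 complex, mostly at the A of DRACH sequences (D is any base but C, R is A or G, H is any base but G), and is known to be frequent near stop codons and in long internal exons. Chromatin remodellers use ATP to slide, evict or exchange nucleosomes, bromodomains bind acetylated lysines of histones, and corepressors bring histone deacetylases or Polycomb complexes to genes. In macrophages such complexes help to open or close the enhancers of inflammatory genes. The macrophage identity of the sample was read only through the presence of sites: 8 of 12 macrophage genes held a site, among them Cd14 with 13 and Csf1r with 11, and 0 of 17 marker genes of other cell types did. Of the usual markers of this lineage, Adgre1, Itgam, Cd68 and Tyrobp had none.

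The following 21-nt windows show the A of each site in its transcript sequence (GRCm38, 5′ to 3′, sense strand), with the pentamer around the A in capitals. The first set holds the best-scoring site of the member with most sites in each class of genes, where Med13 stands before Med1, which also had 4 sites, by its higher median score.

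Chd7, CDS, plus strand of chr4:8866387-8866407: tacctccaGGACTggggggat
Smarca4, 3′ UTR, plus strand of chr9:21702959-21702979: ggaagactGAACCagacattc
Arid1a, CDS, minus strand of chr4:133681412-133681432: tagcacatTGACTgatgaggg
Srcap, CDS, plus strand of chr7:127559574-127559594: gtcacaatGAACTggggacga
Brd2, CDS, minus strand of chr17:34112575-34112595: agcgattcAGACTcgggctaa
Baz1b, CDS, plus strand of chr5:135217030-135217050: ggccaaagGGACTcagaagat
Rai1, 3′ UTR, plus strand of chr11:60198588-60198608: ggattcagGGACTgccactca
Med13, CDS, minus strand of chr11:86319768-86319788: aaacatccGAACTaatgatgt

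The site in Srcap also had the highest score of all 213 member sites (0.954). The next 4 scores belonged to Ep400 (0.941), Asxl1 (0.939), Chd4 (0.926) and a second site of Srcap (0.919), shown here as the other members of the top 5.

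Ep400, CDS, minus strand of chr5:110755555-110755575: acctgattGAACTgttcttct
Asxl1, CDS, plus strand of chr2:153401462-153401482: ccaagcaaAAACTctgtgtct
Chd4, 3′ UTR, plus strand of chr6:125130280-125130300: cctgttacAAACTgttgtgga
Srcap, CDS, plus strand of chr7:127560466-127560486: cccactagAAACTgagaaaat

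None of these top 5 sites was at GGACT, the pentamer with most member sites: Srcap at its best-scoring site and Ep400 had GAACT, and the other 3 had AAACT. The last set holds the best-scoring member sites outside DRACH.

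Rai1, 3′ UTR, plus strand of chr11:60198306-60198326: ggctcagtGGACGacgtgggg
Chd8, CDS, minus strand of chr14:52205059-52205079: tgaggaaaGTACTgttcaggt
Baz1b, 3′ UTR, plus strand of chr5:135244735-135244755: ctaggcatGGATTctgtgagc

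The sites of Rai1 (score 0.768) and Chd8 (0.743) were the only member sites outside DRACH that scored at least 0.7, and the site of Baz1b followed at 0.682. Of the 213 member sites, 198 lay at DRACH, a share of 93.0% (95% Wilson interval 88.7 to 95.7%), against 92.0% (91.6 to 92.4%) in the other protein-coding genes. Intervals on shares of sites cover counting error only, since sites are not replicates. GGACT held 39 member sites, AGACT and GAACT 29 each and GGACA 27. Among the 15 sites outside DRACH, 4 were at GTACT, 3 at GGACG and 2 each at AGACG and GGATT, and 4 further pentamers had 1 site each. The 2 sites at GGATT, in Brd9 and Baz1b, were the only member sites without a C after the A. The model reads the bases around the A, the transcript region and the signal of a site relative to the mean of its gene as input. The motif shares, and the region shares, rates and scores below, thus depend on the model as well as on the RNA.

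**Figure D1:**
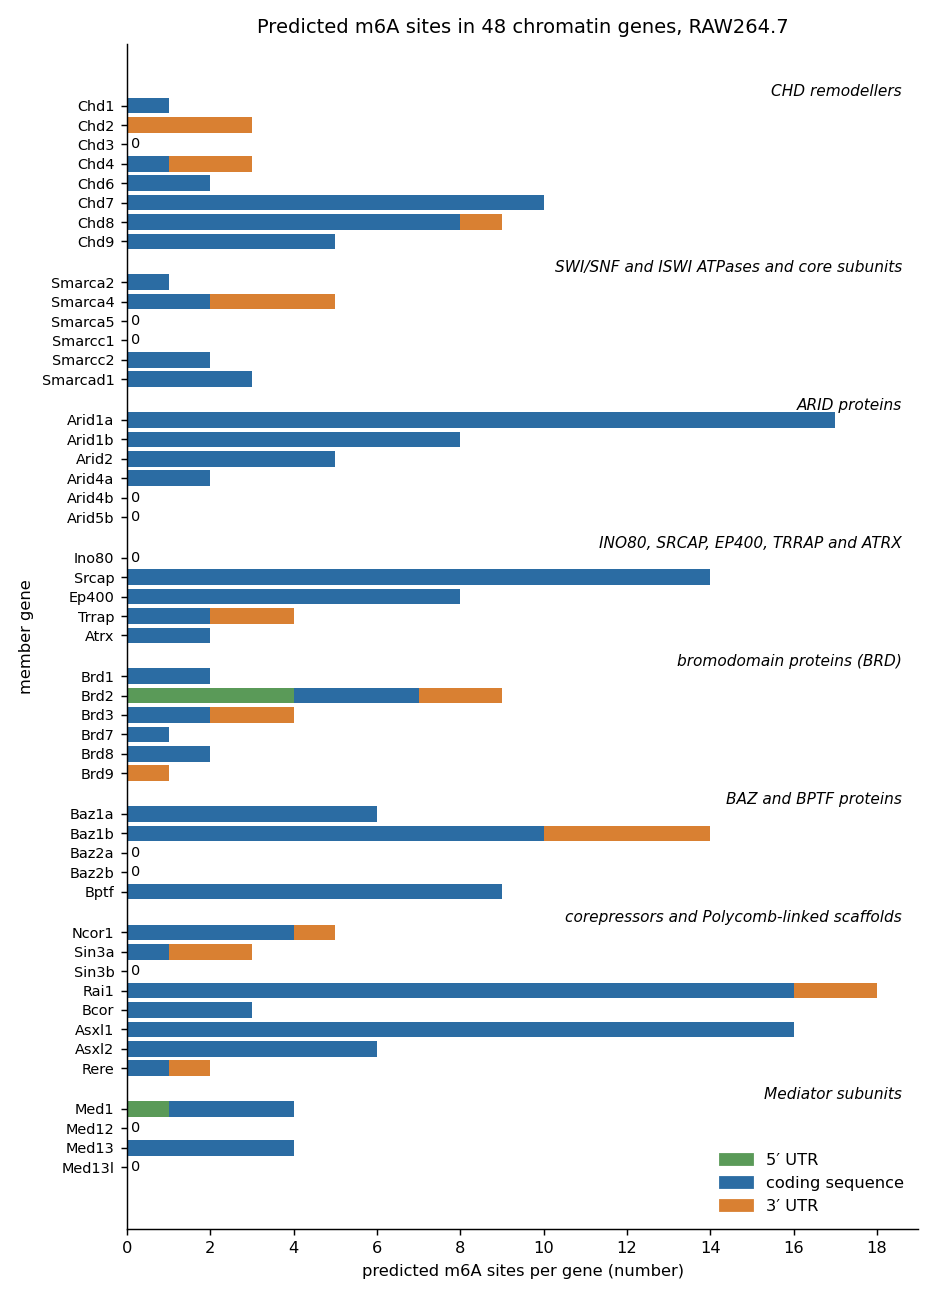
Number of predicted m6A sites in each of the 48 member genes (horizontal axis), stacked by the transcript region that holds them and grouped by class of gene. Rai1, Arid1a and Asxl1 lead with 18, 17 and 16 sites, 11 members have none, and the coding sequence holds most sites in all classes of genes.

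The share of members with a site, 37 of 48 or 77.1%, compares with 23.1% of all 21951 protein-coding genes. Members were long, with a median CDS of 4992 nt, while other protein-coding genes with a site had a median of 1434 nt. Among the 752 protein-coding genes with a CDS of at least 4992 nt, 33.6% held a site. Of the members of that length, 19 of 24 did, and of the shorter members 18 of 24. The list gives no expression level to set beside these shares.

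Sites were spread unevenly over the members. At least 10 sites were found in 6 of the 48 members, or 12.5%, against 1.71% of all protein-coding genes, and these 6 members (Rai1, Arid1a, Asxl1, Srcap, Baz1b and Chd7) held 89 of the 213 sites, or 41.8%. Another 11 members had 5 to 9 sites, 16 had 2 to 4, and 4 (Chd1, Smarca2, Brd7 and Brd9) had 1. The median was 4 sites over the 37 members with a site, against 3 over the other protein-coding genes with a site, 4 over the histone-modifying enzymes described later and 5 over the other genes with a site and a CDS of at least 4992 nt. Per kb of spliced transcript the order was the opposite, with a median of 0.553 sites per kb in members and 0.975 in other genes.

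Scores of member sites ran from 0.507 to 0.954 with a median of 0.722, against a median of 0.734 over the whole list. Member sites in the CDS had a median of 0.720 and those in the 3′ UTR 0.770, with quartile ranges of 0.627 to 0.802 and 0.695 to 0.816 that overlapped widely. In other protein-coding genes the corresponding medians were 0.699 and 0.786.

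The CDS held 182 of the 213 member sites, a share of 85.4% (80.1 to 89.6%). The 3′ UTR held 26, or 12.2% (8.47 to 17.3%), and the 5′ UTR 5, or 2.35% (1.01 to 5.38%). No member site lay in an intron of the chosen transcript. In the other protein-coding genes 49.4% of sites were coding and 42.4% in 3′ UTRs. A closer yardstick is the 234 other genes with a site and a CDS of at least the members' median length, where the shares were 80.8% (78.9 to 82.6%) and 16.5% (14.8 to 18.3%). In 74 enzymes that methylate, demethylate, acetylate or deacetylate histones, of which 46 had a site, the CDS share was 73.5% (67.4 to 78.8%), and 53 of 230 sites were in the 3′ UTR. The interval of the member CDS share thus overlapped that of long coding sequences and lay above those of the histone enzymes and of the other protein-coding genes as a whole. On the longest spliced transcript the CDS shares were 82.6% in members and 48.2% in other protein-coding genes. On the transcript with the longest span that passed support filters, only 105 of the 213 member sites lay in exons, and the CDS shares of all sites, 33.8% (27.8 to 40.4%) and 39.7% (39.1 to 40.4%), had overlapping intervals. There 72 member sites were coding and 18 in 3′ UTRs, against 7876 and 7761 in other protein-coding genes. No test was made, because the sites come from 1 pooled list.

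Counting the available DRACH adenosines separates where sites can be from where they were. The transcripts of the 37 members with a site held 5686 DRACH A, of which 77.9% were coding and 19.7% in 3′ UTRs. In the CDS 171 of 4432 DRACH A were listed, or 3.86% (3.33 to 4.47%), against 3.37% (3.20 to 3.56%) in other genes with a long CDS and 4.56% (4.47 to 4.66%) in all other protein-coding genes with a site. Rates per DRACH A count the transcripts of genes with a site only, unless all genes of a class are named as the base. In the 3′ UTR 22 of 1119 were listed, or 1.97% (1.3 to 2.96%). The corresponding 3′ UTR rates were 3.68% (3.27 to 4.15%) in other long-CDS genes and 5.01% (4.90 to 5.12%) in all others with a site, both above the member interval. Of the 37 members with a site, 35 had a coding site and 13 a site in the 3′ UTR.

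**Figure D2:**
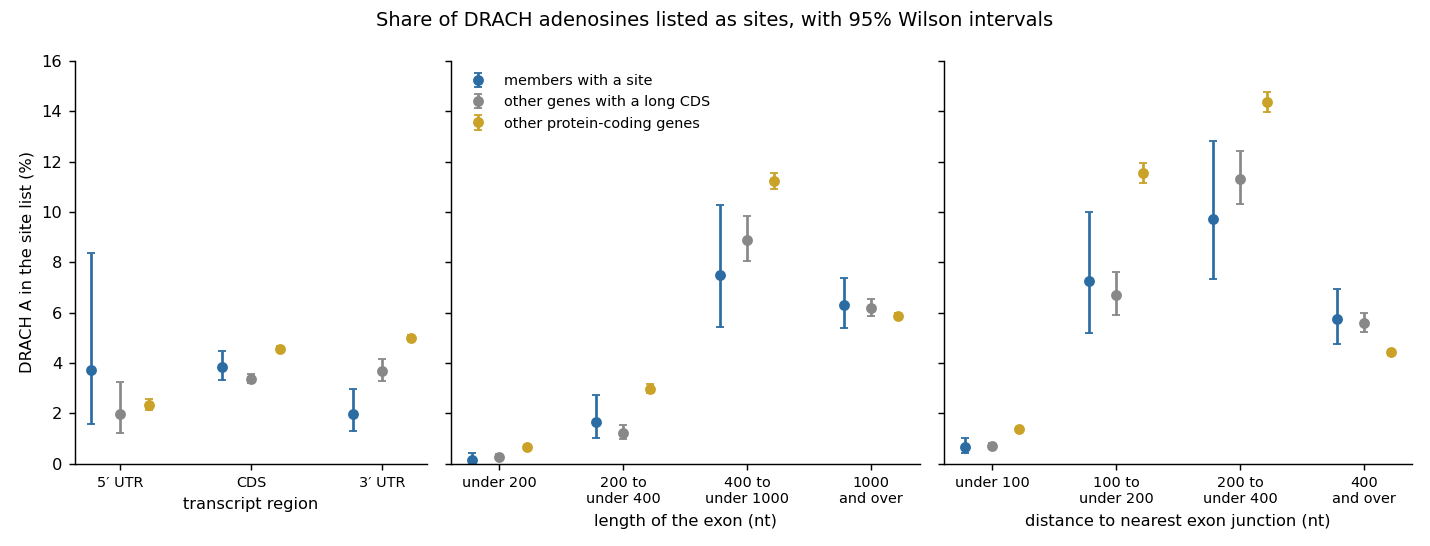
Share of DRACH adenosines that are in the site list (vertical axis, in percent) by transcript region, by exon length and by distance to the nearest exon junction, for members with a site, for other genes with a site and a CDS of at least the members' median length, and for all other protein-coding genes with a site. Points are shares and bars 95% Wilson intervals. In members the share is 1.97% in 3′ UTRs and 3.86% in the CDS, and it is 0.149% in exons under 200 nt.

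Most member sites lay in long exons, although much of the DRACH sequence did not. Exons under 200 nt held 35.4% of the DRACH A of members with a site, and 3 of these 2015 were listed, or 0.149% (0.0506 to 0.437%). The share was 1.65% (1.00 to 2.71%) in exons from 200 to under 400 nt, 7.51% (5.45 to 10.3%) from 400 to under 1000 nt and 6.31% (5.39 to 7.38%) in exons of 1000 nt and over. Other long-CDS genes showed 0.281%, 1.23%, 8.90% and 6.19% in the same classes, each inside the member interval. All other protein-coding genes with a site showed 0.650%, 2.96%, 11.2% and 5.88%, of which the first 3 lay above the member intervals. Counted by exon over all 48 members, 32 of 61 exons of at least 1000 nt held a site, 18 of 51 from 400 to under 1000 nt, 13 of 256 from 200 to under 400 nt and 4 of 969 under 200 nt. Exons of at least 400 nt thus held 193 of the 213 sites, or 90.6% (85.9 to 93.8%), against 89.8% (89.4 to 90.3%) in other protein-coding genes.

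The distance to the nearest exon junction showed the same picture from another side. Within 100 nt of a junction 0.662% (0.429 to 1.02%) of DRACH A were listed, from 100 to under 200 nt 7.25% (5.21 to 10.0%), from 200 to under 400 nt 9.73% (7.33 to 12.8%), and at 400 nt and over 5.74% (4.75 to 6.92%). A total of 107 sites lay at least 400 nt from any junction. Of the 182 CDS sites, 81 (44.5%) were in the last exon, which held 11.4% of the CDS DRACH A. Other long-CDS genes had 19.9% of CDS sites there with 6.29% of the DRACH A, and other protein-coding genes 45.2% with 16.2%. The rate there was 15.4% (12.6 to 18.9%) in members, 10.9% (9.75 to 12.2%) in other long-CDS genes and 12.7% (12.4 to 13.1%) in other protein-coding genes. In internal exons the member rate was 2.34% (1.91 to 2.87%), against 2.82% and 2.81%. Sites within 200 nt of the stop codon made up 14.6% (10.4 to 19.9%) of member sites, against 32.5% in other protein-coding genes and 10.7% (9.32 to 12.3%) in other long-CDS genes. Of the DRACH A in that window 8.03% (5.65 to 11.3%) were listed in members. The rates were 12.8% (12.5 to 13.1%) in other protein-coding genes and 8.40% (7.27 to 9.70%) in other long-CDS genes. The member share with another site of the same gene within 100 nt was 50.2% (43.6 to 56.9%), against 60.2% (59.5 to 60.9%) in other protein-coding genes, 57.2% (54.8 to 59.5%) in other long-CDS genes and 52.2% (45.7 to 58.6%) in the histone enzymes.

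Within codons, 50 of the CDS sites had the A at position 1, 79 at position 2 and 53 at position 3. The DRACH A of the same coding sequences fell at these positions in 27.9%, 46.9% and 25.2%, and the shares listed were 3.80% (2.87 to 5.01%), 3.61% (2.89 to 4.50%) and 4.39% (3.33 to 5.75%), with overlapping intervals.

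**Figure D3:**
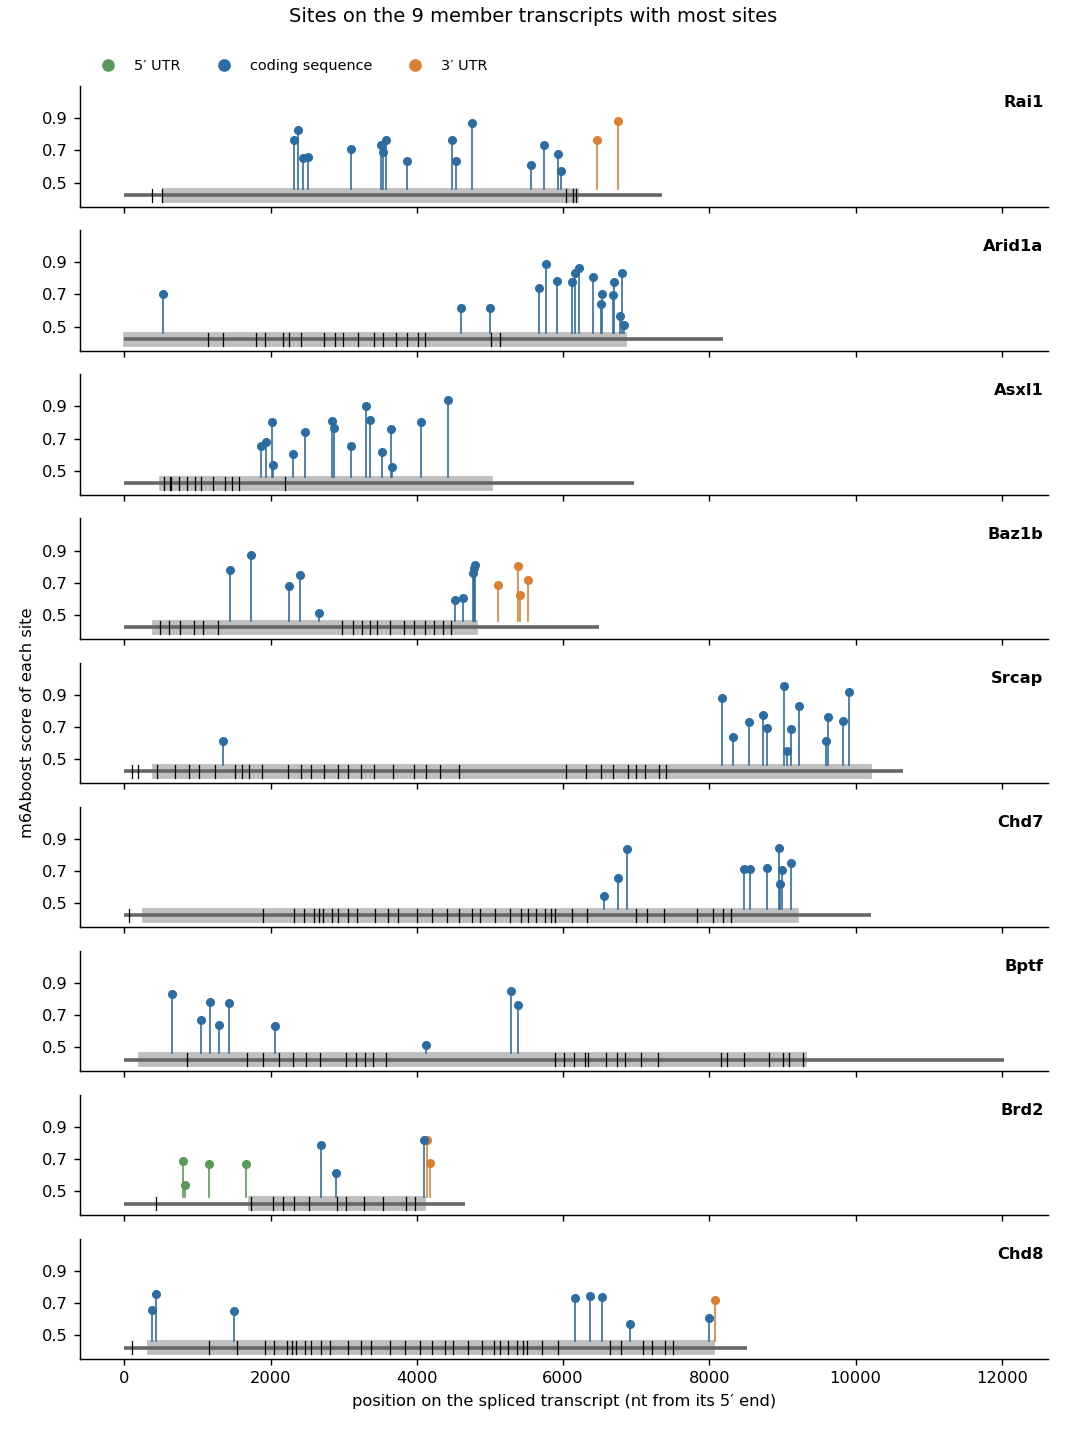
Sites on the spliced transcripts of the 9 members with most sites. The horizontal axis is the position in nt from the transcript's 5′ end, the height of each point is the m6Aboost score, grey boxes are coding sequences and black ticks exon junctions. Sites gather in the exons free of ticks, such as the 5527-nt exon 3 of Rai1 and the 3252-nt last exon of Srcap.

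The exons named in the following are mostly those that held most sites of their gene, so that their share of listed DRACH A is a description and no contrast with the other exons. The corepressors and Polycomb-linked scaffolds held most sites, 53 in 7 of 8 genes, with 47 in the CDS. Rai1, a dosage-sensitive nuclear protein that binds chromatin at promoters, had 18 sites, the most of any member both in number and per kb (2.45). Its exon 3 (chr11:60185096-60190622) spans 75.2% of the spliced transcript and held 16 of the 18, with 15 of its 118 DRACH A listed.
Asxl1, a scaffold that activates the histone deubiquitinase BAP1, followed with 16 sites at 2.30 per kb, all in the CDS. Exon 12 of Asxl1 held 4 and the last exon, exon 13 of 4769 nt (chr2:153399239-153404007), held 12. All 12 lay in its coding part, although the 3′ UTR in the same exon carried 36 DRACH A. Its relative Asxl2 had 6 sites, again all in the coding part of its last exon (6869 nt), with 0 of 85 DRACH A listed in the 3′ UTR.
Ncor1, which bridges nuclear receptors to a histone deacetylase, had 5 sites, 4 of them in the CDS. Sin3a, the scaffold of another deacetylase complex, and Bcor, a partner of BCL6 and of a Polycomb complex, had 3 each. The 3 sites of Bcor were all in its 2847-nt exon 4, whereas 2 of the 3 in Sin3a were in the 3′ UTR. Rere, an atrophin-type corepressor, had 2 sites and Sin3b none.

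**Figure D4:**
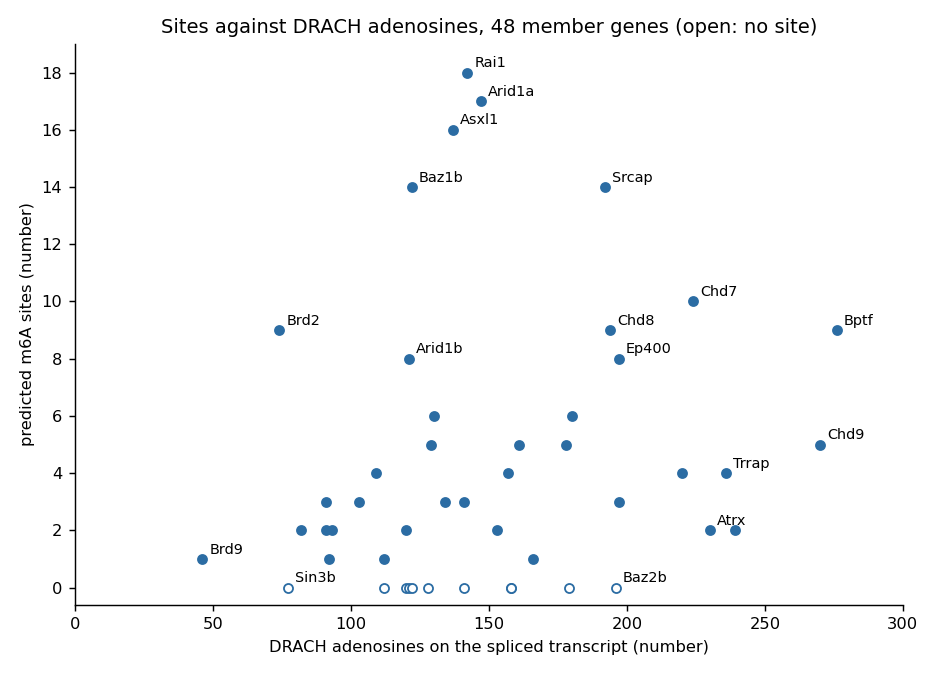
Number of predicted m6A sites (vertical axis) against the number of DRACH adenosines on the spliced transcript (horizontal axis) for the 48 members; open circles are members without a site. Members with 120 to 150 DRACH A range from 0 sites to the 18 of Rai1.

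Among ARID proteins 4 of 6 genes held 32 sites, every one of them in the CDS. Arid1a and Arid1b encode alternative DNA-binding subunits of the BAF form of SWI/SNF. Arid1a had 17 sites at 2.08 per kb, with 15 of its 147 DRACH A listed (10.2%, 6.28 to 16.2%); 14 of the sites were in its last exon, exon 20 (chr4:133679008-133682055). Arid1b had 8 sites, all in its own exon 20 (chr17:5341363-5343505). Neither transcript had a site in the 3′ UTR, where Arid1a offered 25 DRACH A and Arid1b 5.

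The coding part of exon 20 was 1722 nt long in both genes, and 3 of the 8 Arid1b sites stood at the same nucleotide of it as sites of Arid1a. They lay 980, 1019 and 1670 nt from the exon start in both, which is 743, 704 and 53 nt before the stop codon. This comparison was chosen after the positions had been seen. The 3 pairs are shown because they put sites of both genes in aligned codons.

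Arid1a at 980 nt, minus strand of chr4:133681066-133681086: gaggaacaGGACCaaggggtg
Arid1b at 980 nt, plus strand of chr17:5342332-5342352: gaggacgaGGACAagggggtg
Arid1a at 1019 nt, minus strand of chr4:133681027-133681047: tggtggtgGGACTgcttggag
Arid1b at 1019 nt, plus strand of chr17:5342371-5342391: tggtggtgGGACTgcctcgag
Arid1a at 1670 nt, minus strand of chr4:133680376-133680396: ccactgatGAACTcattggtt
Arid1b at 1670 nt, plus strand of chr17:5343022-5343042: gctgtcctGAACTctctggtt

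In the 41 nt around the sites the transcripts shared 32, 32 and 27 bases, so that the windows differed between the genes. The scores were 0.775, 0.833 and 0.835 in Arid1a and 0.704, 0.803 and 0.722 in Arid1b. All 8 Arid1b sites aligned to an A in Arid1a and 4 of them to a DRACH A. Of 18 pairs of related members aligned through their translated coding sequences, 2 others had a site at an aligned position, Chd7 with Chd8 and Chd7 with Chd9, 1 place each, where 17 and 13 of 41 bases were shared. Over all 18 pairs, 127 site positions aligned to the partner, where a site was counted in every pair its gene belongs to, from both sides. Of these, 32 aligned to a DRACH A, and at 10 of the 32 the partner was listed too. The authors kept only uniquely mapping reads, and how reads from similar stretches were placed was not tested further.

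**Figure D5:**
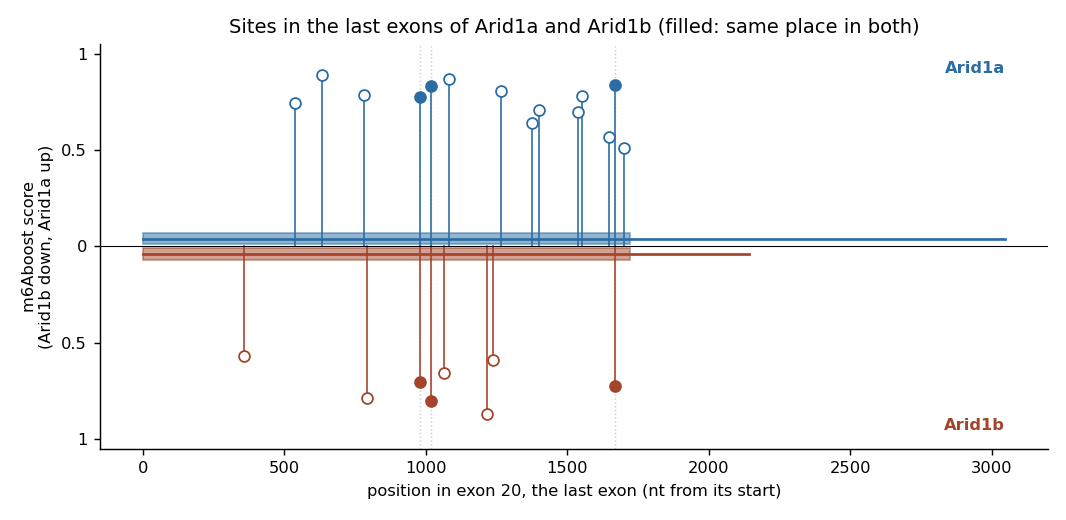
Sites in exon 20, the last exon, of Arid1a (upward) and Arid1b (downward). The horizontal axis is the position in nt from the exon start and the vertical axis the m6Aboost score; boxes are the coding parts and filled points the 3 places with a site in both genes, at 980, 1019 and 1670 nt.

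Arid2, the ARID subunit of the PBAF form of SWI/SNF, had 5 sites, all in its 2843-nt exon 15, and none of its 57 DRACH A in the 3′ UTR was listed. Arid4a, a subunit of SIN3 deacetylase complexes, had 2 sites in its 1134-nt exon 20. Its relative Arid4b and the coactivator Arid5b had none, although the last exon of Arid5b is 6150 nt long.

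Among the large remodelling machines 4 of 5 genes held 28 sites. Srcap, the ATPase that loads a variant histone into nucleosomes, had 14 sites, all in the CDS. Its last exon, exon 34 (chr7:127557968-127561219), held 13, with 13 of 59 DRACH A listed. All 14 also lay within the span of Gm42715, an overlapping gene on the same strand, and were counted for Srcap here.
Ep400, the ATPase of the TIP60 acetyltransferase complex, had its sites near the other end of the transcript. Exon 2 (1370 nt, chr5:110755397-110756766) held 7 of its 8 sites, with 7 of 18 DRACH A listed. Of these, 3 lay within 35 nt:
Ep400, CDS, minus strand of chr5:110755833-110755887: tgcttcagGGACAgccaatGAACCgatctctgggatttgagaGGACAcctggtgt
Trrap, a scaffold of acetyltransferase complexes with the longest spliced transcript of the members (12398 nt), had 4 sites, all in the last of its 71 exons and 2 of them in the CDS. Atrx, a remodeller of heterochromatin, had 2 in its 3014-nt exon 9. Ino80, the ATPase of the INO80 complex, had none of its 122 DRACH A listed.

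BAZ and BPTF proteins are partners of ISWI-type ATPases. Baz1b had 14 sites at 2.16 per kb, 10 coding and 4 in the 3′ UTR, with scores from 0.507 to 0.872. Exon 7 (1705 nt) held 5 and the last exon, exon 19 (chr5:135244106-135246129), held 9. The tightest group of 3 member sites, spanning 23 nt, was in this exon, between 50 and 28 nt before the stop codon:
Baz1b, CDS, plus strand of chr5:135244401-135244443: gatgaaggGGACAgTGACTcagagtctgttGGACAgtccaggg
Bptf, the largest subunit of the NURF remodeller, had 9 sites, spread over exons 1, 2, 4 and 13, and none in its last exon of 2757 nt. Baz1a, a partner of Smarca5, had 6, of which 4 were in exon 18 and 2 in exon 24. Neither Baz2a, which silences ribosomal DNA, nor Baz2b had a site among 179 and 196 DRACH A.

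CHD remodellers held 33 sites in 7 of 8 genes, 27 of them in the CDS. Chd7, the gene of CHARGE syndrome, had 10 sites, 7 in its last exon (exon 38, chr4:8865738-8867659) and 3 in exon 31, all in the CDS. Chd8, a regulator linked to autism, had 9 sites over 5 exons, from codon 21 (score 0.652) to 15 nt past the start of the stop codon (0.715). Chd9 had 5, all in the coding part of its last exon, the last of them 2 nt before the stop codon.
The position of sites differed between relatives. All 3 sites of Chd2 and 2 of 3 of Chd4, an ATPase of the NuRD complex, were in the 3′ UTR, whereas Chd6 and Chd1, with 2 and 1, had theirs in the CDS. Chd3, the relative of Chd4 in NuRD, had none listed among 120 DRACH A. Without depth or expression in the list, this count sets no limit on its methylated share.

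The bromodomain genes were the only class in which all members, 6 of 6, held a site, 19 in total, with 10 coding sites, 5 in 3′ UTRs and 4 in 5′ UTRs. Brd2, a BET protein that reads acetylated histones, had 9 sites and 10.8% (5.58 to 19.9%) of its DRACH A listed. Its 4 sites in the 5′ UTR were all in exon 2 (1295 nt, chr17:34118606-34119900), with scores of 0.669, 0.669, 0.537 and 0.683. The only other member site in a 5′ UTR was that of Med1 at 0.532.
Brd3, its BET relative, had 4 sites. Both genes had a CDS site 8 nt before the stop codon, at AGACT with 0.819 in Brd2 and at TGACT with 0.539 in Brd3. Brd3 also had a higher-scoring site (0.908) 9 nt past the start of its stop codon. Brd1, a scaffold of acetyltransferases, and Brd8, a TIP60 subunit, had 2 coding sites each. Of the SWI/SNF subunits, Brd7 had 1 coding site and Brd9 1 past the stop codon.

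The class of SWI/SNF and ISWI ATPases and core subunits, with Smarcad1 placed in it, held few sites, 11 in 4 of 6 genes. Of the DRACH A of all 6 genes, with or without a site, 1.49% (0.813 to 2.73%) were listed. Smarca4, a catalytic subunit of SWI/SNF, had 5, 3 of them in the 3′ UTR. Of those, 2 were 5 nt apart just past the stop codon, with scores of 0.772 and 0.688. Smarca2, the alternative catalytic subunit, had 1 site. Smarcad1, a remodeller that maintains silent chromatin, had 3 sites, all in its 389-nt exon 9, with a best score of 0.908.
Smarcc2, a core subunit, had 2 sites in adjoining short exons of 162 and 65 nt, 39 nt apart after splicing; these were 2 of the 4 member sites in exons under 200 nt. Its relative Smarcc1 and Smarca5, the ISWI ATPase, had no site among 121 and 112 DRACH A.

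Mediator subunits held 8 sites in 2 of 4 genes. Med1, the subunit that contacts nuclear receptors, and Med13, of the kinase module, had 4 each, while Med12 and Med13l of the same module had none. The 4 sites of Med13 were all in exon 9 within 90 nt, the only place where a member had 4 sites within 100 nt. The stretch is printed to show their spacing, with the 4 pentamers in capitals:
Med13, CDS, minus strand of chr11:86319750-86319859: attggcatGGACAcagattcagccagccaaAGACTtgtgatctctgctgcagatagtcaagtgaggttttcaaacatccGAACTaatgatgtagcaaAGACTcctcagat
Their scores in this order were 0.681, 0.802, 0.819 and 0.526. The 3′ UTR of Med13 is 3953 nt long and had 0 of 84 DRACH A listed, and that of Med1 had 0 of 57.

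The 11 members without a listed site (Chd3, Smarca5, Smarcc1, Arid4b, Arid5b, Ino80, Baz2a, Baz2b, Sin3b, Med12 and Med13l) were not short. Their spliced transcripts ran from 4115 to 8385 nt with a median of 6809 nt and carried 77 to 196 DRACH A with a median of 128. Members with a site had medians of 7348 nt and 142 DRACH A over ranges that included these. Of the 61 member exons of at least 1000 nt, 11 belonged to members without a site. Across all 48 members the number of sites went weakly with the number of DRACH A (Spearman's rho 0.28, Pearson's r 0.19) and with spliced length (0.37 and 0.29), as a description only, since longer transcripts hold more of both.

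Complex partners of the members, in lists of 109 other genes, held a site in 61, with 212 sites in all. Their median CDS was 1542 nt and 95 of their sites, 44.8%, were in the CDS. The SIN3, NCoR and CoREST partners had sites in 11 of 18 genes, among them Sap130, a subunit of SIN3 complexes, with 8. Other bromodomain proteins had sites in 10 of 17, with 11 each in Zmynd8, Brpf1 and the acetyltransferase Ep300. Mediator subunits outside the 4 members had sites in 16 of 29, with 7 in Med22 and 5 in Med20. All 7 of Med22 lay inside the gene's span but in no exon of its chosen transcript.
The INO80, SRCAP and TIP60 partners had sites in 10 of 16, with 7 in Actr5, a subunit of the INO80 complex, and 3 each in Ino80e, Ruvbl2 and Kat5. The 3 of Ino80e lay in no exon of its chosen transcript. ISWI and NuRD partners had sites in 8 of 14, with 7 in Gatad2a and 6 in Rsf1. SWI/SNF accessory subunits had sites in 6 of 15, with 5 in Bcl7a and 4 in Ss18, and 12 of the 17 sites of this list were in 3′ UTRs.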

How the data were processed

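The authors mapped the reads of each replicate to GRCm38 (the submitters' processing notes name STAR 2.7.3a, SAMtools 1.9, UMI-tools 1.0.0 and bedtools 2.27.1), called crosslink peaks, kept peaks found in at least 2 of the 3 replicates and scored those at A with m6Aboost. The deposited column used here is this prediction score, a model output without unit and not a methylation level, of sites above 0.5. All 19301 sites lay at A when starts were read as 0-based; positions are 1-based on GRCm38. Genes came from GENCODE M21, whereas the authors used release M23. The sequence was that of GRCm38.p6. Each member was read on the transcript with the longest CDS; a site inside several genes counted for each.

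Members, gene lists and the comparison with other long-CDS genes were chosen with earlier results of these data known. Named genes were the 2 members with most sites of each class, the 3 with most sites per kb, the 5 best-scoring sites, members without a site and sites outside DRACH scoring at least 0.7, with all other members accounted for. Of each list of partners the 2 genes with most sites were named, ties included, and 1 such gene is not reported here. The 3 replicates form 1 pooled list, so no test was made. Position reading was tested on simulated sites. Shares carry 95% Wilson intervals. Related members were aligned with Biopython 1.88. Python 3.11.15, NumPy 2.4.6, SciPy 1.17.1, pysam 0.24.0 and matplotlib 3.10.9 were used.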

Additional observations from a re-analysis of the deposited data

How the results depend on the processing

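No paired analysis was possible because 1 list stands for all replicates, and for the same reason none could be left out. At a minimum score of 0.7, 36 members held 121 sites with a median of 2, and 98.3% of sites were at DRACH, 37.2% had another site within 100 nt, 94.2% were in exons of at least 400 nt, and 2.11% of 5640 DRACH A were listed (in this and the following settings, those of members that still held a site). At 0.9, 7 members held 9 sites (median 1), of which 100% were at DRACH, 77.8% coding and 22.2% in 3′ UTRs; 0% had another site within 100 nt and 0.867% of 1038 DRACH A were listed, a smaller base than the 5686 of all members with a site. In other protein-coding genes the CDS share was 42.2% and 22.1% at these minimums. The transcript choice moved the CDS share most, with many sites then in no exon: on the longest transcript by span with support filters, 105 of the 213 sites were exonic, 33.8% were coding, 8.45% in 3′ UTRs (other protein-coding genes 39.7% and 39.2%) and 25.3% of 95 within 200 nt of the stop codon; 83.8% were in exons of at least 400 nt and 2.61% of 3608 DRACH A were listed. The longest spliced transcript gave 82.6% in the CDS (other protein-coding genes 48.2%). RRACH held 86.4% of sites, and 99.1% had AC. Within 400 nt of the stop codon lay 25.4%; another site within 50 nt was found for 32.4% and within 200 nt for 71.4%. Exons of at least 200 nt held 98.1% and of at least 1000 nt 71.8%. Without Rai1, Arid1a and Asxl1, left out after their counts were seen, the CDS share was 82.1% and 2.89% of 5260 DRACH A were listed. With Srcap's shared sites left out, 36 members and 199 sites remained.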
